A study of Mus musculus with 12 samples.

Results

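Promoter peaks of noncoding RNA genes were examined in brain macrophages of bone marrow (BM) chimeric mice. The members are peaks of open chromatin that lie at an annotated transcription start and whose nearest gene is listed as something other than protein-coding, such as a long noncoding RNA, a microRNA, a small nucleolar RNA or a pseudogene. They were taken by their annotation from the merged peak table of each treatment. The untreated table held 658 such peaks at 547 genes among 60288 peaks, and the LPS table held 621 at 538 genes among 54953, which makes 1279 of 115241 peaks and 618 genes in all.

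The assay was ATAC-seq, where a transposase cuts and tags DNA that is not wrapped tightly in chromatin. Wild-type (WT) C57BL/6J recipients were irradiated with 950 cGy and received BM of congenic WT donors that carry the CD45.1 form of the leukocyte antigen CD45, whereas the recipients' own cells carry CD45.2. After 3.5 or 9 months, an interval the labels do not assign to single mice and of which the study's text names the longer one, mice were left untreated or were injected with 2.5 mg/kg of the bacterial endotoxin lipopolysaccharide (LPS) and killed 12 h later. Brain cells positive for CD11b and negative for Ly6C and Ly6G were sorted by their CD45 form. Each library holds CD45.1 (graft-derived) cells or CD45.2 (host microglia) cells. Numbers in the sample titles were read as mice, which the titles do not state. Mice 4, 5 and 6 were untreated and mice 1, 2 and 3 received LPS, which gives 4 groups of 3 libraries (CD45.1 or CD45.2, untreated or LPS). All of these mice, the untreated ones included, were irradiated chimeras, and the labels give no age. In such bulk libraries, a smaller share of cells with an open site and a site that is less open in every cell cannot be told apart.

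Many long noncoding RNA genes use the same kind of promoter as protein-coding genes, whereas some small structural RNAs, such as Rmrp and Rpph1, are transcribed by RNA polymerase III from promoters of another kind. Long noncoding RNAs are often transcribed away from a protein-coding gene that shares their promoter, small nucleolar RNA (snoRNA) host genes release snoRNAs from their introns, and microRNAs are cut from hairpins in longer transcripts and pair with messenger RNAs through a short seed. In macrophages, several such transcripts, among them the antisense RNA near Ptgs2 and the host transcript of miR-155, are known to respond to endotoxin.

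The 8 windows printed here carry the main comparisons. For 4 of them a matched peak was called between the populations both in untreated and in LPS-treated mice. For the other 4 a peak was called between treatments in both populations. Each is the plus strand of mouse genome build mm9 over 201 bases around the centre of the untreated peak, with matches to the motifs described further on in capitals. The first 4 lie at chr3:45182127-45182327 (2610316D01Rik), chr12:20821571-20821771 (1700030C10Rik), chr6:148303041-148303241 (Rps4l) and chr16:84972237-84972437 (Gm10791). The others lie at chr19:21179147-21179347 (4930554I06Rik), chr1:138579848-138580048 (Gm19705), chr1:152012106-152012306 (Ptgs2os2) and chr8:94879898-94880098 (Crnde).
2610316D01Rik: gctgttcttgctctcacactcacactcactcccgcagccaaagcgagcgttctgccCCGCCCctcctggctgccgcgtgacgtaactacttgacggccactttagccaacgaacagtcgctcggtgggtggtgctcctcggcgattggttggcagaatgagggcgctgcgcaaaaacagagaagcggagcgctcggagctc
1700030C10Rik: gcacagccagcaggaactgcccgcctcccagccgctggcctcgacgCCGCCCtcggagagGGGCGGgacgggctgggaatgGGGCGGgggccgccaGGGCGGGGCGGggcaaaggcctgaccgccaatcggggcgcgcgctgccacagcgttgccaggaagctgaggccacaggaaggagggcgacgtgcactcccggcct
Rps4l: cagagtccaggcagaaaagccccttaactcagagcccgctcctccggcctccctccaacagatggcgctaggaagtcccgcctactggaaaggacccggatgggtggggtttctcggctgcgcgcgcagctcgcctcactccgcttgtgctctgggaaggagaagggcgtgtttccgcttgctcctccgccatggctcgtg
Gm10791: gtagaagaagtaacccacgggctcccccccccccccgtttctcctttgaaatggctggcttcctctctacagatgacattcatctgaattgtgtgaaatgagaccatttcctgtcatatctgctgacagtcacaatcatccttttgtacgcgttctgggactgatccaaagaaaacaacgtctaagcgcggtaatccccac
4930554I06Rik: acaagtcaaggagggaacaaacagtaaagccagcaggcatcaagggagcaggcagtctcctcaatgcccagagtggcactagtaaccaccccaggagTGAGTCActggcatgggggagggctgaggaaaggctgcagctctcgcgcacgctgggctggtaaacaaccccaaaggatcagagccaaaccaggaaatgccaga
Gm19705: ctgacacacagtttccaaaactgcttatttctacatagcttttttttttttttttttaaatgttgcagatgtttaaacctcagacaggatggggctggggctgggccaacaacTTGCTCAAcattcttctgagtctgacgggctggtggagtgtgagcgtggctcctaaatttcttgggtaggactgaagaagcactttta
Ptgs2os2: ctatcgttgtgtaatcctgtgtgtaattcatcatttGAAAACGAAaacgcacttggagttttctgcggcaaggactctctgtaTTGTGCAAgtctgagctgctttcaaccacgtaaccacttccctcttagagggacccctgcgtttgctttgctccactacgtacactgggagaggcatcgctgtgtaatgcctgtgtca
Crnde: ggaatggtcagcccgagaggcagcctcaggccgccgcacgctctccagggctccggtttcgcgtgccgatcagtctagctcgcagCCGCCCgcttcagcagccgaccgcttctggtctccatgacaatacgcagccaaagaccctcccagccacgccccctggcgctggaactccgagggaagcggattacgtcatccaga
The capitals mark a GC box in 2610316D01Rik and Crnde, 5 GC boxes in 1700030C10Rik, an AP-1 match in 4930554I06Rik, a CEBP match in Gm19705, and an IRF match followed by a CEBP match in Ptgs2os2. Rps4l and Gm10791 held none of the motifs searched. GC content ran from 42.8% in the Gm19705 window to 75.6% in the 1700030C10Rik window.

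Most members were labelled ncRNA, with 609 of 658 in the untreated table and 580 of 621 in the LPS table. The rest of the untreated members were 39 pseudogene, 6 snoRNA and 4 small nuclear RNA (snRNA) promoters. After LPS they were 32 pseudogene, 5 snoRNA and 3 snRNA promoters and 1 ribosomal RNA promoter. MicroRNA symbols made up 85 and 84 of the peaks, and the systematic Rik names made up 314 and 296. Among the untreated genes, 451 had a single member peak, 82 had 2, 13 had 3 and 1 had 4, so that neighbouring members can share a gene.

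Many of these promoters lie close to a start annotated as protein-coding. A protein-coding start under another symbol lay within 1000 bp of 288 untreated members (43.8%) and of 265 LPS members (42.7%), and within 200 bp of 151 and 142. Symbols alone were compared, so another name of the same gene would be counted too. For 160 untreated members, the transcript that the annotation names at the start is itself a coding one. A further annotation, GENCODE, lists the member's own symbol as protein-coding for 60 untreated members (9.12%) and 61 LPS members (9.82%). Accessibility at such a site cannot be assigned to the noncoding transcript alone. The median distance of an untreated member from its annotated start was 86.5 bp, against 64.0 bp for the promoter peaks of protein-coding genes.

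Members resembled protein-coding promoters more than other peaks in base composition, and those that stood alone were less CpG-rich. Median GC content was 61.2% in untreated members, 64.7% in protein-coding promoter peaks and 52.2% over all peaks. The observed-to-expected CpG ratio followed the same order, at 0.721, 0.814 and 0.325. Members with a protein-coding start within 1000 bp had a median GC of 65.2% and a CpG ratio of 0.843, whereas those without had 55.7% and 0.595. A peak was found in all 6 untreated libraries for 353 members (53.7%), against 66.3% of protein-coding promoter peaks and 33.6% of all peaks. After LPS the same count was 275 (44.3%), against 62.2% and 31.3%.

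The members took a small share of the signal, with overlapping ranges in the 4 groups. They held 1.79% ± 0.035 of the tags in peaks in CD45.1 untreated, 1.77% ± 0.0713 in CD45.2 untreated, 1.79% ± 0.0367 in CD45.1 LPS and 1.81% ± 0.0402 in CD45.2 LPS (SD, n = 3 mice each). Of the library totals deposited with the counts the members held 0.589%, 0.561%, 0.627% and 0.553%, with ranges that also overlapped. Library totals were 8392877.5 to 9107770 tags for the untreated groups and 2966364 to 6556594.5 for the LPS groups, of which 1680263.5 to 3348848 and 779253 to 2121732.5 were in merged peaks. The lowest values of the peak tags belong to CD45.2 of mouse 4 and CD45.2 of mouse 1. Of 8 macrophage and microglia marker genes, 6 had a promoter peak in the untreated table (not Csf1r and Aif1) and 5 in the LPS table (not Itgam either). Their summed normalized tags were 546 to 645 in CD45.1 and 608 to 664 in CD45.2 of untreated mice, and 178 to 235 and 187 to 228 after LPS, where each table has size factors of its own and levels are not on one scale between them. All markers listed for neurons, astrocytes, endothelium, T cells and B cells were without a promoter peak in either table. The same held for Sall1, a microglia gene, where peaks outside the promoter were not read here. At the Sall1 locus the study reports ATAC signal in host microglia and none in engrafted cells. The neutrophil genes S100a8 and Camp had a promoter peak in the LPS table and none in the untreated one, with summed normalized tags of 14.6 to 46.2 in CD45.1 and 13.1 to 59.97 in CD45.2. Mbp, of 3 oligodendrocyte markers, had a promoter peak in both tables, with summed tags of 31.0 to 48.3 in untreated libraries and 18.4 to 26.4 after LPS. The part of these cells in the results was not tested.

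The comparison of CD45.1 with CD45.2 in untreated mice asks where graft-derived cells and host microglia differ at noncoding promoters after long residence in the same brain. Of 646 members with more than 10 tags in at least 1 library, 8 were called higher in CD45.1 and 5 higher in CD45.2 (DESeq2, adjusted p under 0.01 and more than 4-fold). These are 1.24% and 0.774% of the members tested, below the 3.78% and 2.65% of all peaks tested that were called in these directions, and beside 0.773% and 0.813% of protein-coding promoters. Without the fold limit and at an adjusted p under 0.05, 31 members were higher in CD45.1 and 21 in CD45.2. The background at that limit was 8.54% and 6.32% of all peaks, the members stood at 4.8% and 3.25%, and the protein-coding promoters at 2.64% and 2.22%. Most members differed little, since 91.3% of those tested were under 2-fold, against 80.3% of all peaks, with a median absolute difference of 0.21 on the log2 scale.

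**Figure D1:**
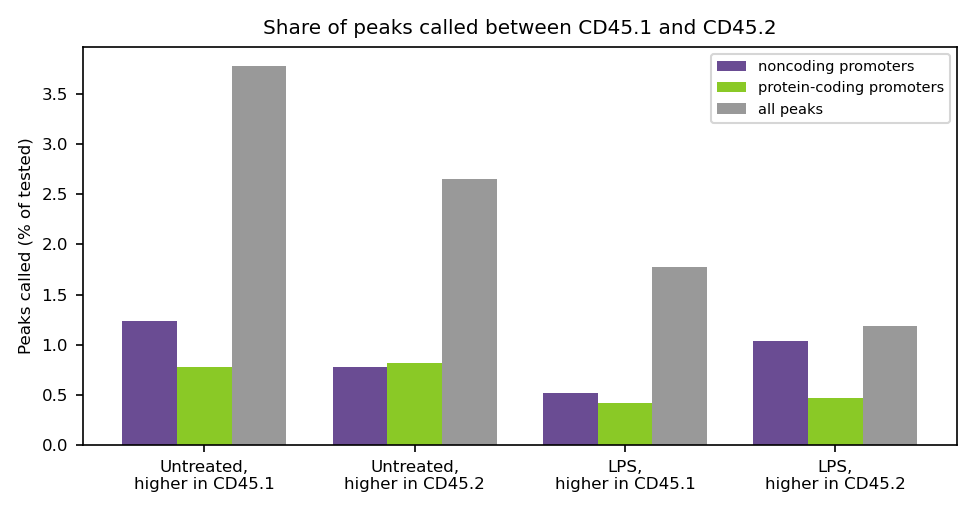
Percent of tested peaks called between CD45.1 and CD45.2 (vertical axis, adjusted p under 0.01 and more than 4-fold) for noncoding promoters, protein-coding promoters and all peaks, by treatment and direction. The noncoding bars lie below the bar of all peaks in each of the 4 pairs, at 1.24% against 3.78% for untreated CD45.1, and closest to it after LPS in CD45.2, at 1.04% against 1.19%.

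The clearest differences toward host microglia were at 1700030C10Rik, 2610316D01Rik and Rps4l. In normalized tags per library, which are tags divided by the library's size factor, the 1700030C10Rik peak (chr12:20821606-20821737, at -31 bp from the start, negative meaning upstream) stood at 9.79, 1.37 and 9.26 in CD45.1 of mice 4, 5 and 6 and at 96.7, 65.8 and 46.3 in CD45.2. The lowest host library was above the highest graft library by a wide margin. Such separation, here and at the called peaks below, is read in the libraries that gave the call and is no further support. The means were 6.81 ± 4.72 and 69.6 ± 25.4 (SD, n = 3), a difference of -3.39 on the log2 scale (SE 0.45, DESeq2 adjusted p = 1.75e-11). This promoter is the GC-rich window with 5 GC boxes.

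The 2610316D01Rik peak (chr3:45182155-45182300) lies 93 bp from the start of Pcdh10, a protocadherin gene of cell adhesion in the nervous system. It stood at 1.87, 0.913 and 2.18 normalized tags in CD45.1 and at 77.8, 48.8 and 41.8 in CD45.2, so that the graft libraries were close to empty. The difference was -5.09 on the log2 scale (SE 0.72, DESeq2 adjusted p = 3.68e-10). The Rps4l peak (chr6:148303076-148303206), listed as a pseudogene of a ribosomal protein and 37 bp from a start annotated as Rps4y2, stood at 4.20, 0.913 and 2.18 in CD45.1 and at 43.4, 32.1 and 26.8 in CD45.2 (log2 difference -3.88, SE 0.67, DESeq2 adjusted p = 4.16e-07). Ribosomal protein genes have many near-identical copies, so the assignment of reads to this site is uncertain. Whether Rps4y2 is another name of the same gene was not checked.

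Both of the remaining host-higher peaks were weak. 4930519K11Rik (chr14:24824066-24824188) had 0 tags in every CD45.1 library and 17.2, 15.1 and 17.04 normalized tags in CD45.2. Set against a floor of 3 tags per library, it was at least 5.60-fold higher in CD45.2 (DESeq2 adjusted p = 1.98e-05). 1700017J07Rik stood at 0.933, 1.82 and 5.44 in CD45.1 and at 15.6, 19.7 and 23.5 in CD45.2 (log2 difference -2.94, SE 0.70, DESeq2 adjusted p = 0.000485). Its groups did not overlap, but its adjusted p rose to 0.0210 without CD45.2 of mouse 6, and leaving out CD45.1 of mouse 4 or the CD45.2 library of mouse 5 also ended the call.

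Toward graft-derived cells, the strongest peaks were at Gm10791, 5430437J10Rik and 4930570G19Rik. Gm10791 (chr16:84972253-84972421) stood at 53.6, 43.4 and 32.7 normalized tags in CD45.1 and at 3.28, 0.774 and 8.52 in CD45.2, without overlap. The means were 43.2 ± 10.5 and 4.19 ± 3.95, a log2 difference of 3.399 (SE 0.55, DESeq2 adjusted p = 4.96e-08). Its nearest other protein-coding start was 136467 bp away.

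The 5430437J10Rik peak (chr15:5445425-5445735, at -738 bp) stood at 30.3, 42.9 and 40.3 in CD45.1 and at 8.19, 0.774 and 2.03 in CD45.2 (log2 difference 3.799, SE 0.63, DESeq2 adjusted p = 1.21e-07). At 4930570G19Rik, the called peak (chr3:156223822-156223942) lies 876 bp from the start of Negr1, which encodes a neuronal adhesion molecule. It stood at 41.0, 50.7 and 55.0 in CD45.1 and at 5.74, 10.1 and 10.6 in CD45.2 (log2 difference 2.37, SE 0.40, DESeq2 adjusted p = 2.80e-07). A nearer peak of the same gene, 25 bp from the Negr1 start, differed in the same direction by 1.34 (SE 0.31, DESeq2 adjusted p = 0.000274). In each of these peaks the graft libraries were all above the host libraries.

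The other 5 graft-higher calls were lost when some single libraries were left out. AI662270 (37.3, 36.5 and 55.0 against 9.01, 1.94 and 11.4) was lost without CD45.2 of mouse 4 or mouse 5, with an adjusted p of up to 0.0108. Gm19705 (21.4, 12.8 and 17.97 against 3.28, 1.55 and 1.22) reached an adjusted p of 0.0278 without CD45.2 of mouse 5, and leaving out CD45.1 of mouse 4 or the CD45.2 library of mouse 6 also ended its call. 4930554I06Rik stood at 15.9, 8.67 and 36.5 in CD45.1 and between 2.44 and 2.71 in CD45.2, and without CD45.1 of mouse 6 its adjusted p was 0.0876. That call was also lost without CD45.2 of mouse 5 or mouse 6. The peak of Ptgs2os2 at -912 bp (17.3, 15.97 and 13.1 against 3.28, 1.16 and 2.44) reached 0.0653 without CD45.2 of mouse 5, and Gm15133 (13.99, 10.9 and 37.0 against 3.28, 1.55 and 6.09), 634 bp from Trim12a, reached 0.195 without CD45.1 of mouse 6. Leaving out CD45.1 of mouse 4 or the CD45.2 library of mouse 6 ended both calls, and leaving out a library of mouse 5 ended that of Ptgs2os2 (CD45.1) and that of Gm15133 (CD45.2). In a fit blocked by mouse, 4930554I06Rik (adjusted p = 0.0167), Ptgs2os2 (0.0259) and Gm15133 (0.0172) were no longer called. All values are DESeq2 adjusted p-values. Of the 13 untreated calls, 7 held without any 1 library, and leaving out CD45.2 of mouse 5 left 8 calls.

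**Figure D2:**
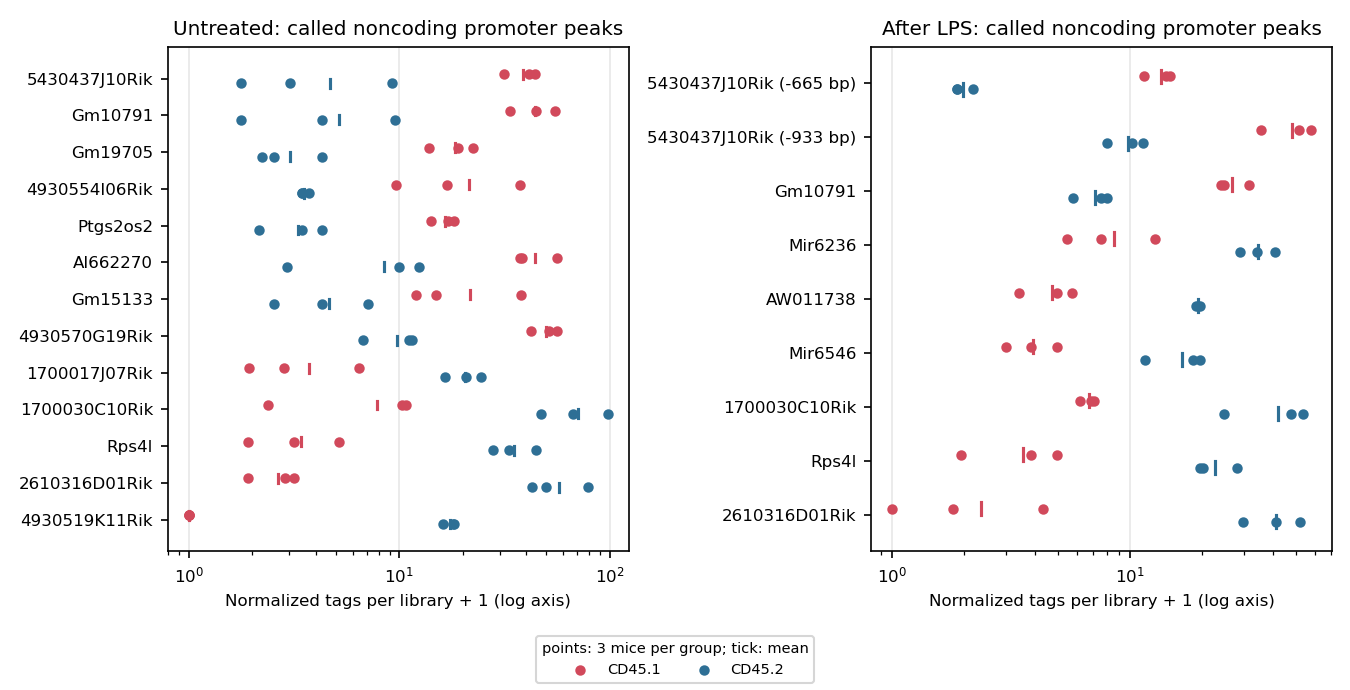
Normalized tags plus 1 per library on a log axis for each called noncoding promoter peak, with 3 points per population (CD45.1 red, CD45.2 blue) and a tick at the mean, for untreated mice on the left (13 peaks) and after LPS on the right (9 peaks). Within every row shown the red and blue points do not overlap, and 4930519K11Rik has 0 tags in every CD45.1 library. The rows were chosen by their difference in these same libraries, which favors such separation.

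Gm19705 and Ptgs2os2 lie on chromosome 1, 1.38 Mb and 11.9 Mb from Ptprc, the gene of CD45, whose allele differs between donor and host by design. Whether the donor's sequence around Ptprc plays a part at these peaks was not tested.

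Called peaks were shallower than the rest, and in base composition it was the graft-higher ones that stood apart. The 8 graft-higher peaks had a median GC of 45.8% and a CpG ratio of 0.40, the 5 host-higher peaks 64.2% and 0.739, and the 633 members not called 61.2% and 0.727. Called members had a median mean level of 18.3 normalized tags, against 52.6 in the others. None of the 13 had a peak in all 6 libraries, against 353 of the 633. Of the called members, 4 had a protein-coding start within 1000 bp (30.8%), against 44.2% of the others. After LPS the 3 graft-higher peaks had a median GC of 43.3% and a CpG ratio of 0.233, the 6 host-higher peaks 63.2% and 0.769, and the 570 members not called 61.2% and 0.717, with median mean levels of 15.99 normalized tags in called members and 25.6 in the others. These are descriptions of few peaks, and a peak that is near empty in a population is by that fact seldom found in all libraries.

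Several members passed an adjusted p under 0.05 without reaching 4-fold. 3110070M22Rik stood at 159, 173 and 184 normalized tags in CD45.1 and at 71.3, 67.3 and 65.7 in CD45.2 (log2 difference 1.34, SE 0.19, DESeq2 adjusted p = 1.60e-10). Mir6236 stood at 26.1, 20.1 and 32.1 against 157, 91.7 and 70.6 (log2 difference -1.99, SE 0.31, DESeq2 adjusted p = 1.22e-08), and Mir1905 at 27.5, 24.6 and 15.2 against 92.6, 89.4 and 68.6 (log2 difference -1.86, SE 0.30, DESeq2 adjusted p = 3.33e-08). The 3 peaks show groups that do not overlap. 6430562O15Rik and F630206G17Rik were higher in CD45.1, by 1.81 (SE 0.39) and 1.18 (SE 0.26), and 4930449E18Rik and 1700052I22Rik were higher in CD45.2, with differences of -1.35 (SE 0.25) and -1.69 (SE 0.38).

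The question after LPS was the same, in mice 1, 2 and 3. Of 579 members tested, 3 peaks at 2 genes were called higher in CD45.1 and 6 peaks higher in CD45.2 (DESeq2, same limits). The background was 1.78% and 1.19% of all peaks, the members stood at 0.518% and 1.04%, and protein-coding promoters at 0.422% and 0.465%. At an adjusted p under 0.05 the members numbered 9 (1.55%, background 4.08%) and 10 (1.73%, background 2.38%), beside 1.06% and 1.05% of protein-coding promoters. Under 2-fold were 89.3% of the members tested and 81.9% of all peaks.

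At 2610316D01Rik the host-higher pattern was present after LPS with 0.809, 0 and 3.30 normalized tags in CD45.1 and 50.8, 28.8 and 40.1 in CD45.2 (log2 difference -4.60, SE 0.75, DESeq2 adjusted p = 3.42e-07). 1700030C10Rik stood at 6.06, 5.87 and 5.19 against 52.5, 46.2 and 23.8 (log2 difference -2.77, SE 0.51, DESeq2 adjusted p = 8.27e-06). Toward graft-derived cells, the 5430437J10Rik peak at -933 bp stood at 34.4, 50.2 and 56.6 against 7.01, 9.16 and 10.4 (log2 difference 2.34, SE 0.42, DESeq2 adjusted p = 5.29e-06). These 3 calls, of 9, held without any 1 library, and their groups did not overlap.

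Another 6 calls did not hold in every such fit. Mir6236 stood at 4.45, 6.52 and 11.8 in CD45.1 and at 33.3, 39.7 and 27.9 in CD45.2 (log2 difference -2.16, SE 0.48, adjusted p = 0.000407, up to 0.0348 without CD45.2 of mouse 2, and lost also without CD45.1 of mouse 1). Rps4l stood at 2.83, 3.91 and 0.944 against 27.1, 19.2 and 18.7 (-3.04, SE 0.69, adjusted p = 0.000565, up to 0.0171 without CD45.1 of mouse 3, and lost also without either library of mouse 1). Gm10791 stood at 23.9, 30.7 and 23.1 against 7.01, 6.54 and 4.75 (2.10, SE 0.52, adjusted p = 0.00196, up to 0.0661 without CD45.2 of mouse 3), and its call was lost without each library other than CD45.2 of mouse 1. In these 3 peaks the populations did not overlap.

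The weakest calls fell without any of the 6 libraries. They were the second 5430437J10Rik peak, at -665 bp (13.8, 10.4 and 13.2 against 0.876, 0.872 and 1.19, adjusted p = 0.00636), AW011738, 1868 bp from the start of the interferon-induced gene Isg15 (2.43, 3.91 and 4.72 against 18.4, 17.9 and 18.7, adjusted p = 0.00862), and Mir6546, 420 bp from the Fc receptor gene Fcgr3 (2.02, 3.91 and 2.83 against 10.5, 17.4 and 18.7, adjusted p = 0.00967). Their adjusted p-values rose to at most 0.0765, 0.114 and 0.129. Mir6546 lies 32.9 Mb from Ptprc. With the mouse as a block, 5 of the 9 calls were made, and Gm10791 (adjusted p = 0.0251), the second 5430437J10Rik peak (0.0299), AW011738 (0.0604) and Mir6546 (0.0672) were not among them. All of these are DESeq2 adjusted p-values. Leaving out CD45.1 of mouse 1 left 3 calls, CD45.1 of mouse 3 left 4, and each of the other 4 libraries left 5.

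Untreated and LPS-treated mice are different animals, so the calls of one table can be read in the other. Of the 13 untreated calls, 7 had a one-to-one matched peak that was tested after LPS, all 7 differed in the same direction, 6 had an adjusted p under 0.05 and 4 were called. Of the 9 LPS calls, 5 had a matched untreated peak, 5 differed in the same direction with an adjusted p under 0.05, and the same 4 were called. Over all called peaks the same reading gave, of 3804 untreated calls, 2004 with a tested matched peak, of which 99.5% differed in the same direction, 65.6% had an adjusted p under 0.05 and 41.6% were called. Of 1459 LPS calls it gave 941, with 100.0%, 97.2% and 88.6%. Recurrence of this kind was thus common to called peaks and is not particular to the members. The 4 matched members called in both tables were 2610316D01Rik, 1700030C10Rik and Rps4l, higher in CD45.2, and Gm10791, higher in CD45.1. 5430437J10Rik was also called higher in CD45.1 in both tables, without a matched peak. Its untreated peak (chr15:5445425-5445735) overlaps the LPS peaks at chr15:5445249-5445522 and chr15:5445607-5445699, each by less than the 50% reciprocal limit. The untreated call without an adjusted p under 0.05 after LPS was Gm19705, with a log2 difference of 3.13 (SE 0.78) untreated and 0.59 (SE 0.46, DESeq2 adjusted p = 0.622) after LPS.

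**Figure D3:**
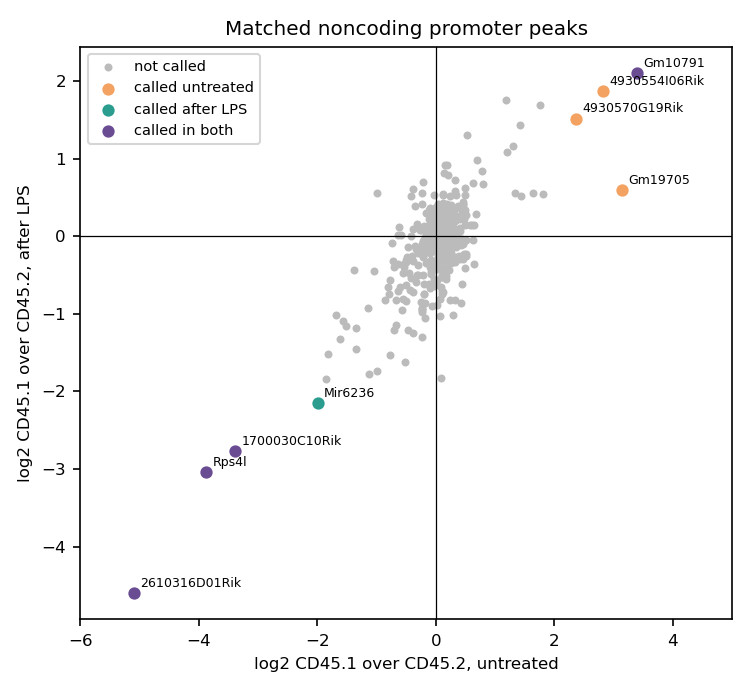
Log2 difference of CD45.1 over CD45.2 in untreated mice (horizontal) and after LPS (vertical) for matched noncoding promoter peaks tested in both tables, with called peaks in color and named. The 4 peaks called in both lie far from 0 on both axes, from -5.09 and -4.60 at 2610316D01Rik to 3.399 and 2.10 at Gm10791, while Gm19705 lies at 3.13 and 0.59.

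Mature sequences of some of the microRNA genes named here follow, from RefSeq (GRCm38.p6), with bases 2 to 8, the seed, in capitals. The promoter peaks of Mir6236, Mir1905, Mir6546, Mir9-3 and Mir92b passed an adjusted p under 0.05 between populations, as did those of a few others that are not printed, and that of Mir1904 was called between treatments in both populations. Of 84 microRNA symbols among the members, 72 were found in the RefSeq table. No seed is shared among these sequences.
mmu-miR-6236 (Mir6236): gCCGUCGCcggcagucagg
mmu-miR-1905 (Mir1905): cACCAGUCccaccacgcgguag
mmu-miR-6546-5p (Mir6546): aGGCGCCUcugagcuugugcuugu
mmu-miR-6546-3p (Mir6546): gAGCGAAGcccaagcgccaga
mmu-miR-9-5p (Mir9-3): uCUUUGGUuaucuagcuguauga
mmu-miR-9-3p (Mir9-3): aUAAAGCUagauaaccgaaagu
mmu-miR-92b-5p (Mir92b): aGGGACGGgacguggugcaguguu
mmu-miR-92b-3p (Mir92b): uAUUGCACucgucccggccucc
mmu-miR-1904 (Mir1904): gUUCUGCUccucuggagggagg
For a microRNA the annotated start is the 5′ end of its hairpin, which need not be where transcription begins.

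Groups of related genes were read from lists of names, each given by its counts and its median. For the counts between populations, the background at an adjusted p under 0.05 was 8.54% of all untreated peaks higher in CD45.1 and 6.32% higher in CD45.2. After LPS it was 4.08% and 2.38%. Of 85 untreated microRNA peaks at 74 genes, 84 were tested, 4 were higher in CD45.1 and 4 higher in CD45.2 at an adjusted p under 0.05, and 0 were called. Their median log2 difference was 0.0032, against 0.00084 over all peaks tested. Those higher in CD45.1 included Mir210, which serves the response to low oxygen (log2 difference 0.48, SE 0.17, DESeq2 adjusted p = 0.0390), and Mir92b (3.16, SE 1.01, DESeq2 adjusted p = 0.0152). Higher in CD45.2, beside Mir6236 and Mir1905, was Mir9-3, a gene of the neural microRNA miR-9 (-1.56, SE 0.55, DESeq2 adjusted p = 0.0329). After LPS, 1 of 78 tested peaks was higher in CD45.1, which was Mir1956 (1.13, SE 0.31, DESeq2 adjusted p = 0.00885), and 4 were higher in CD45.2, of which Mir6236 and a peak of Mir6546 were called.

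Among snoRNA host genes, small structural RNAs and imprinted RNAs, 0 promoter peaks passed an adjusted p under 0.05 between the populations. For snoRNA host genes these were 14 tested untreated peaks, which included Snhg8, Dancr, Gas5, Snhg5, Snhg6 and Snhg9, and 15 tested after LPS, with medians of 0.048 and -0.067 beside 0.00084 and -0.0077 over all peaks. Among 16 tested peaks of small structural RNAs, such as Rmrp, Rpph1, Snord104, Scarna2 and Rnu12, 0 passed untreated, and 0 of 12 passed after LPS. The imprinted and X-inactivation RNAs held by the tables, among them Kcnq1ot1, Jpx and Peg13, gave 0 of 4 and 0 of 3. A difference below the limit at these depths was not detectable, which does not show that the populations were equal.

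Much-studied long noncoding RNAs, such as Mir22hg, Tug1, Dleu2 and Malat1, had 15 tested untreated peaks at 10 genes, of which 1 passed an adjusted p under 0.05. It was Pvt1, the neighbor of Myc, at 5.60, 10.9 and 4.36 normalized tags in the CD45.1 libraries and at 22.1, 19.7 and 18.3 in CD45.2 (log2 difference -1.51, SE 0.54, DESeq2 adjusted p = 0.0375). After LPS 0 of 12 passed. Outside the lists, the promoter of Trp53cor1, an RNA transcribed near the cell-cycle inhibitor Cdkn1a, was lower in CD45.1 by -0.64 (SE 0.22, DESeq2 adjusted p = 0.0255). Among 9 untreated peaks of immune-linked RNAs at 6 genes, 3 were higher in CD45.1 and 0 in CD45.2 at an adjusted p under 0.05. They were both peaks of Ptgs2os2 and a peak of Gm14005 at -587 bp (1.43, SE 0.47, DESeq2 adjusted p = 0.0200). The main Ptgs2os2 peak, at -128 bp, stood at 115, 152 and 148 in CD45.1 and at 90.9, 60.4 and 89.3 in CD45.2 (0.80, SE 0.21, DESeq2 adjusted p = 0.00181), and without CD45.2 of mouse 5 the adjusted p was 0.0921. After LPS 1 of 8 passed, again at Ptgs2os2 (0.67, SE 0.22, DESeq2 adjusted p = 0.0410).

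The response to LPS was read within each population on 454 tested members that match one to one between the tables, of 455 matched pairs at 421 genes, in a model of all 12 libraries. Because the LPS and untreated tables were called, merged and counted separately, treatment, table and the width of the counting window cannot be told apart by design. Member windows were wider after LPS, with a median of 180.5 bp against 148.0 bp, and the log2 difference rose with the log2 ratio of the widths, with Pearson r of 0.45 in CD45.1 and 0.447 in CD45.2 across 454 members that share libraries and windows, which are not independent replicates. Over all peaks tested these were 0.429 and 0.424. Counts were therefore also scaled by peak width, an alternative chosen after seeing the data, after which r was -0.042 and -0.12.

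**Figure D4:**
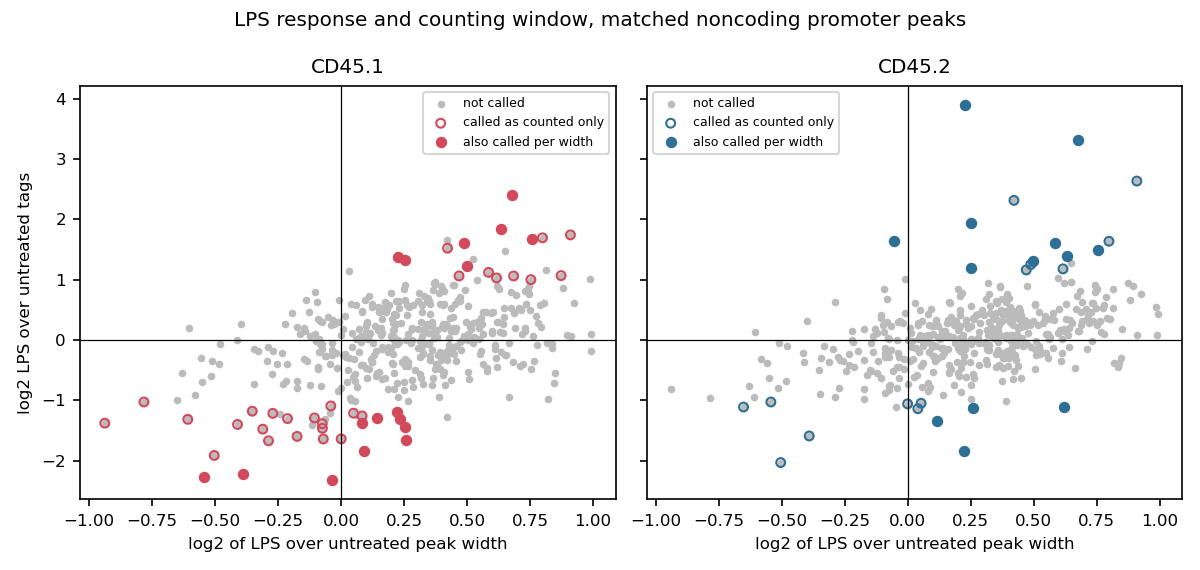
Log2 of LPS over untreated tags (vertical) against log2 of LPS over untreated peak width (horizontal) for matched noncoding promoter peaks in CD45.1 (left) and CD45.2 (right). The gray cloud rises from left to right in both panels, with Pearson r of 0.45 and 0.447, and the filled points are the 17 and 13 peaks called both as counted and per width.

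In CD45.1, 16 members were higher after LPS and 29 lower (DESeq2, adjusted p under 0.05 and more than 2-fold). These are 3.52% and 6.39% of the members, beside a background of 6.77% and 4.98% of all peaks and 2.87% and 3.05% of protein-coding promoters. Scaled by width, 9 (1.98%) were higher and 14 (3.08%) lower, against backgrounds of 5.38% and 3.33%. In CD45.2, 15 (3.3%) were higher and 11 (2.42%) lower, with backgrounds of 7.68% and 3.7%, and scaled by width 13 (2.86%) and 6 (1.32%), with backgrounds of 6.14% and 2.26%. Scaled by library totals, the counts were 11 higher and 13 lower in CD45.1 and 8 and 8 in CD45.2. Both the count and its split between directions therefore moved with the scaling. As counted, the share of members was below the background except among peaks lower after LPS in CD45.1, and per width it was below it in each case. Without CD45.2 of untreated mouse 5 the CD45.2 count fell from 26 to 15. Both settings called 7 of the 16 higher and 10 of the 29 lower members in CD45.1, and 9 of the 15 and 4 of the 11 in CD45.2. In all, 22 peaks were called under both settings in at least 1 population, and 8 in both. No share of all peaks called in these joint ways is given, so these counts cannot be set against a background.

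Of the 8 peaks, 6 were more open after LPS. The Crnde promoter (chr8:94879913-94880083), of a long noncoding RNA known from tumors and 21 bp from another start annotated as coding, stood in CD45.1 at 46.4, 41.6 and 40.1 normalized tags in untreated mice and at 114, 182 and 121 after LPS. In CD45.2 it stood at 50.6, 44.0 and 39.0 and at 139, 128 and 111. The treatments did not overlap in either population. The log2 differences were 1.68 (SE 0.21, DESeq2 adjusted p = 8.53e-13) and 1.496 (SE 0.22, DESeq2 adjusted p = 3.97e-10), and 1.19 and 1.01 per width, since the window grew from 171 to 289 bp.

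Ptgs2os2, the endotoxin-induced antisense RNA near the prostaglandin synthase gene Ptgs2, rose at its main promoter peak (chr1:152012132-152012281). It stood at 76.9, 102 and 97.1 untreated and 186, 239 and 227 after LPS in CD45.1, and at 60.4, 41.1 and 60.4 and then 175, 129 and 107 in CD45.2. The lowest LPS library was above the highest untreated library in both populations. The log2 differences were 1.23 (SE 0.20, DESeq2 adjusted p = 3.61e-08) and 1.31 (SE 0.21, DESeq2 adjusted p = 5.17e-08), and 1.00 and 1.09 per width. Its window holds the IRF and the CEBP match printed above.

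9230116N13Rik, 200 bp from the RNA helicase gene Ddx59, rose from 25.2 ± 2.83 to 89.9 ± 6.09 normalized tags in CD45.1 (1.84, SE 0.24, DESeq2 adjusted p = 5.98e-12) and from 34.3 ± 8.03 to 87.6 ± 9.27 in CD45.2 (1.4, SE 0.23, DESeq2 adjusted p = 1.09e-07). Mir1904, 37 bp from a start of the cyclic AMP phosphodiesterase gene Pde4d, rose from 21.1 ± 3.48 to 53.6 ± 17.2 in CD45.1 (1.32, SE 0.30, DESeq2 adjusted p = 0.000176) and from 24.1 ± 3.69 to 57.1 ± 8.80 in CD45.2 (1.20, SE 0.29, DESeq2 adjusted p = 0.000577). Neither peak overlapped between treatments in either population.

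4930554I06Rik and Gm19705 were near empty in host microglia before LPS. 4930554I06Rik (chr19:21179195-21179299) stood at 10.6, 5.82 and 24.01 untreated and 70.9, 70.0 and 74.1 after LPS in CD45.1, and at 1.63, 1.84 and 1.65 and then 7.57, 25.9 and 20.6 in CD45.2. The log2 differences were 2.41 (SE 0.37, DESeq2 adjusted p = 1.24e-08) and 3.31 (SE 0.61, DESeq2 adjusted p = 2.73e-06). Gm19705 (chr1:138579893-138580004) stood at 14.3, 8.57 and 11.8 and then 28.7, 35.0 and 26.6 in CD45.1, and at 2.18, 1.05 and 0.824 and then 13.9, 23.4 and 19.7 in CD45.2. Its log2 differences were 1.37 (SE 0.40, DESeq2 adjusted p = 0.00544) and 3.90 (SE 0.69, DESeq2 adjusted p = 8.17e-07), and in CD45.1 the adjusted p was 0.0515 without CD45.1 of LPS mouse 2. In both genes and both populations every LPS library was above every untreated one.

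F630206G17Rik and 2310005A03Rik were less open after LPS in both populations. F630206G17Rik fell from 56.5 ± 9.74 to 25.2 ± 8.06 normalized tags in CD45.1 (-1.19, SE 0.32, DESeq2 adjusted p = 0.00280) and from 25.4 ± 1.56 to 7.83 ± 3.51 in CD45.2 (-1.85, SE 0.45, DESeq2 adjusted p = 0.000733). Without the library of LPS mouse 3 of the same population, these adjusted p-values were 0.0529 and 0.0649. 2310005A03Rik fell from 46.3 ± 5.65 to 14.8 ± 3.88 in CD45.1 (-1.65, SE 0.35, DESeq2 adjusted p = 8.29e-05) and from 46.3 ± 10.2 to 21.6 ± 2.52 in CD45.2 (-1.13, SE 0.32, DESeq2 adjusted p = 0.00455, and 0.0723 without CD45.2 of untreated mouse 5).

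**Figure D5:**
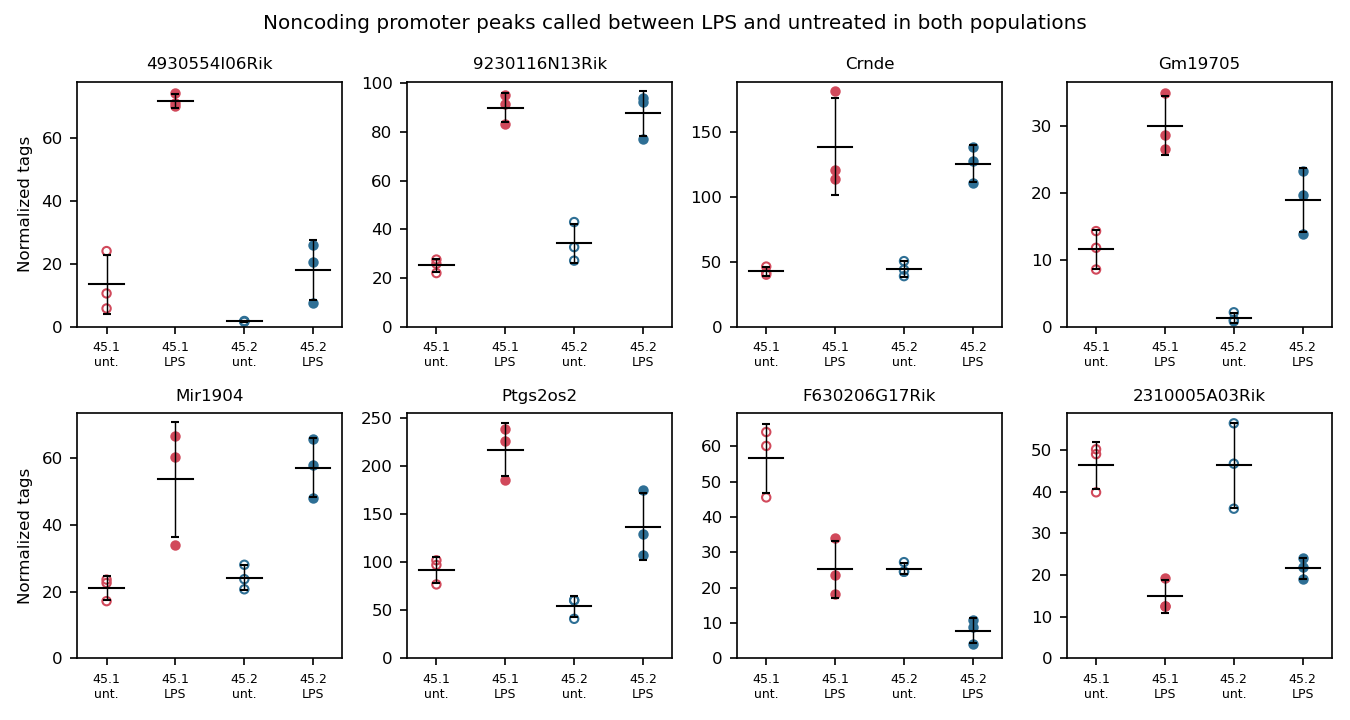
Normalized tags per library (vertical axis from 0, own scale in each panel) for the 8 noncoding promoter peaks called between LPS and untreated in both populations as counted and per width, with 3 points, the mean and 1 SD per group (CD45.1 red, CD45.2 blue, open untreated, filled LPS). In 6 panels LPS lies above untreated, as at Crnde with 138.8 against 42.7 in CD45.1, and in the last 2 panels it lies below.

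The largest fall in CD45.1 by adjusted p was at Zfas1, a snoRNA host gene antisense to Znfx1 whose start lies 100 bp from the same peak. It stood at 138, 124 and 172 normalized tags in untreated CD45.1 and at 43.4, 35.0 and 10.5 after LPS, and in CD45.2 at 104, 124 and 98.3 and then 55.5, 49.9 and 55.1. All LPS libraries were below all untreated ones. The log2 difference was -2.27 (SE 0.27, DESeq2 adjusted p = 1.11e-14) in CD45.1 and -1.03 (SE 0.24, DESeq2 adjusted p = 0.000383) in CD45.2. Its window narrowed from 319 to 219 bp, and per width these were -1.45 (DESeq2 adjusted p = 4.32e-06) and -0.21 (DESeq2 adjusted p = 0.627).

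Several well-known genes were called in CD45.1 as counted and not per width. Gas5, which accumulates in growth-arrested cells, rose from 101.0 ± 2.81 to 214 ± 46.3 as its window grew from 142 to 260 bp (log2 difference 1.07, and 0.47 per width). Its call as counted was lost without CD45.1 of LPS mouse 3 (0.93). Snhg8 gave 1.00 and 0.52, and its call, at the limit of 2-fold, was lost by edgeR (0.995), with library totals (0.957), with a mean of at least 20 tags (0.9946) and in 6 of the 12 fits that leave out a library (0.93 to 0.9985), which were CD45.1 of LPS mice 2 and 3, CD45.1 of untreated mice 4 and 5 and CD45.2 of untreated mice 4 and 5. Neat1, the scaffold of paraspeckles, fell from 40.0 ± 7.91 to 14.3 ± 4.04 at its peak at -352 bp (-1.48, SE 0.36, DESeq2 adjusted p = 0.000726, and -0.89 with adjusted p = 0.0603 per width). Terc, the RNA of telomerase, and Rnu11, an RNA of the minor spliceosome, gave -1.67 and -1.38 as counted and -1.11 and -0.17 per width. Malat1, an abundant nuclear RNA, was called in neither population, with log2 differences of -0.49 (SE 0.25, DESeq2 adjusted p = 0.156) in CD45.1 and 0.32 (SE 0.23, DESeq2 adjusted p = 0.377) in CD45.2.

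By list, snoRNA host genes in CD45.1 had 2 peaks called higher after LPS (Gas5 and Snhg8) and 3 lower (Zfas1, Snhg7 and Snhg20) of 14, with the Gas5 and Snhg8 calls lost under the settings named above, and per width 0 higher and 1 lower, so that the balance depends on the scaling. In CD45.2 they had 0 higher and 1 lower, and per width 0 in either direction. MicroRNA promoters in CD45.1 had 2 called higher and 7 lower of 61 tested, and 2 and 6 per width. In CD45.2 they had 2 and 3, and 2 and 1 per width. The lower ones called under both settings were Mir1191b, Mir700, Mir1955 and Mir1932 in CD45.1 and Mir203 in CD45.2. Small structural RNAs gave 2 lower of 9 in CD45.1, which were Terc and Rnu11, 0 per width, and 0 in CD45.2. Much-studied long noncoding RNAs gave 1 higher (Crnde) and 1 lower (Neat1) of 12 in CD45.1, 1 and 0 per width, and 1 and 0 in CD45.2 under both settings. Immune-linked RNAs gave 1 of 7 higher in each population, which was Ptgs2os2, under both settings. The 3 imprinted or X-inactivation peaks gave 0. Beside these counts, 6.77% of all peaks were called higher after LPS and 4.98% lower in CD45.1, and 5.38% and 3.33% per width. In CD45.2 the shares of all peaks were 7.68% and 3.7%, and 6.14% and 2.26% per width. The list medians ranged from -0.18 to 0.47 on the log2 scale in CD45.1 and from -0.030 to 0.36 in CD45.2, beside -0.0045 and -0.0072 over all peaks.

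The difference between the responses of the 2 populations was tested as an interaction. Of 454 members, 0 had an adjusted p under 0.05 by DESeq2, against 0.242% of all peaks. An unadjusted p under 0.05 was found for 20 members, beside 2090 of all 39235 peaks tested. By edgeR the member counts were 0 and 31, with no count over all peaks given. The stronger fall of Zfas1 in CD45.1 was a difference of -1.24 (SE 0.36, DESeq2 adjusted p = 0.132), and the smaller rise of Gm19705 in CD45.1 was -2.53 (SE 0.80, DESeq2 adjusted p = 0.244). Without CD45.1 of LPS mouse 1, Zfas1 passed, with -1.72 (SE 0.41, DESeq2 adjusted p = 0.0247). A different response of graft and host cells was thus not shown at any of these promoters with all libraries in the fit.

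Some members had a peak in 1 table and no overlapping peak in the other. They were 101 of 658 untreated members (15.3%) and 86 of 621 LPS members (13.8%), of which 44 and 54 were found in a single library. The same held for 25.9% of all untreated peaks and 9.84% of protein-coding promoter peaks, and for 20.2% and 6.06% after LPS, so that the members lay between these backgrounds in both tables. Found in all 6 libraries of their table were Zeb2os, 4933432I03Rik, A630066F11Rik and 4632404H12Rik among the untreated and Mir1956 and Gm17745 among the LPS members. Gm17745 was not without an untreated promoter peak. One lay at chr10:92798704-92798792, found in 1 library, beside the LPS peak at chr10:92798807-92799065. Zeb2os, antisense to the transcription factor gene Zeb2, averaged 65.8 ± 13.9 normalized tags in the graft libraries and 80.3 ± 12.4 in the host libraries (log2 difference -0.27, SE 0.24, DESeq2 adjusted p = 0.597). Mir155hg, the host gene of the inflammatory microRNA miR-155, had a member peak after LPS alone, at 15.4, 11.7 and 45.3 in CD45.1 and 2.63, 2.18 and 23.2 in CD45.2 (log2 difference 1.31, SE 1.16, DESeq2 adjusted p = 0.696), and the populations overlapped. Loss of a peak, the separate peak calls and the lower depth after LPS cannot be told apart here.

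Motifs were searched on both strands in 201 bp around the centre of every promoter peak, allowing matches to share bases, as a pair of GC boxes does in 1700030C10Rik. The motifs were AP-1 (TGANTCA), CRE (TGACGTCA), CEBP (TTGCNNAA), PU.1 (GAGGAAGT), IRF (GAAANNGAA), NF-kB (GGGANTTTC), RUNX (TGTGGTT) and the GC box (GGGCGG). The complement of the NF-kB motif opens with the same 4 letters as the IRF motif, so that these can overlap. In the untreated table, the GC box was in 48.2% of member windows and in 60.5% of all 13366 promoter windows, AP-1 in 5.32% and 3.09%, CEBP in 6.99% and 5.42%, PU.1 in 5.32% and 3.42%, IRF in 5.78% and 4.23%, RUNX in 3.5% and 2.19%, CRE in 2.74% and 3.26%, and NF-kB in 1.22% and 0.718%. In the LPS table AP-1 was in 8.21% of member windows and 4.11% of all promoter windows, and the GC box in 47.7% and 61.6%. There CEBP was in 7.89% and 5.72%, PU.1 in 4.67% and 3.22%, and IRF in 5.96% and 4.01%. RUNX was in 4.35% and 2.37%, NF-kB in 1.77% and 0.858%, and CRE in 2.58% and 3.25%. Among the called untreated members, 2 of the 8 graft-higher windows and 0 of the 5 host-higher windows held AP-1, and 1 and 2 held a GC box. CEBP was also in 2 and 0 of them, IRF in 1 and 0, and each of the other motifs in 0 and 0. These matches describe letters in the windows and are not shown to be bound.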

How the data were processed

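ATAC-seq libraries of 12 sorted samples were analysed. Per the labels the authors used bcl2fastq 2.17.1.14, Bowtie2, Picard 1.108 and HOMER with genome build mm9. The authors deposited, per treatment, a table of merged peaks with HOMER's annotation and estimated counts of tags per library in steps of 0.5, not normalized. Of these values 49.1% (untreated) and 47.7% (LPS) are not whole, and they were rounded for the fits. Peaks with more than 10 tags in at least 1 library (59170 of 60288 and 49180 of 54953) were tested across the whole table with DESeq2 1.42.0 in R 4.3.3, with edgeR 4.0.16 as an alternative. Tables were matched one to one by at least 50% reciprocal overlap (39390 peaks, 39235 tested), and all 12 libraries were fitted together with population, treatment and their interaction. An adjusted p was not given by DESeq2 for 17 matched members. Groups follow the sample titles, and the numbers in them were read as the mouse, which the titles do not state. On this reading both populations of a mouse come from the same brain, which pairs them. Deviations from the group means correlated between the populations of the same mouse at 0.0807 to 0.0873 untreated and at -0.0665 to 0.149 after LPS, and between different mice at -0.159 to 0.117. The mouse block was therefore fitted too. In the main fits each library is a unit, so their p-values measure the spread between libraries of a group, which on this reading are different mice. The pairing of populations within a mouse enters only the fits with the mouse block. As a check of the code, the fits were also run on simulated counts. Changes there were larger, and the changed peaks deeper, than for many peaks called here, so that run does not bear on these calls. Between populations every called member was named, with members at an adjusted p under 0.05, up to 6 per direction. Between treatments, those described were called as counted and per width in both populations, or were Zfas1, well-known genes or genes of the lists. Other called members there were left out, some of smaller adjusted p than those named. The called members followed under the alternatives were up to 12 per direction in order of adjusted p, and not all are named. Lists have up to 6 examples in order of mean tags. Others, such as members of small counts (Terc, Rnu11, Pvt1, Mir9-3, Mir92b, Mir210, Trp53cor1, Zeb2os and Mir155hg among them), were chosen after their values were seen. The members, lists and tests were chosen with earlier results of these data known. Starts under other symbols were taken from the GENCODE annotation of mm9. Peak lists of single libraries were used here for counts of libraries with a peak.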

Additional observations from a re-analysis of the deposited data

How the results depend on the processing

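Calls between populations numbered 13 untreated and 9 after LPS. With a mean of at least 20 tags they were 7 and 4, and leaving out 1 library at a time gave 8 to 13 and 3 to 5. With the replicate block of mouse there were 10 and 5, and the block otherwise changed no call between populations and left the interaction at 0. Between treatments, CD45.1 had 45 calls and CD45.2 had 26. Library totals gave 24 and 16, matching by any overlap gave 68 and 42, and scaling by width, chosen after seeing the data, gave 23 and 19. A mean of at least 20 tags gave 17 in CD45.2. Leaving out 1 library gave 32 to 49 and 15 to 28, and for the interaction 0 to 1 against 0. The causes of these shifts were not tested. edgeR gave 16, 9, 54, 29 and 0 calls in the 5 comparisons. Without members that have a protein-coding start within 1000 bp the counts were 9, 6, 33, 19 and 0. Library totals moved the median log2 difference of all peaks by 0.141 after LPS between populations, by -0.141 between treatments in CD45.2 and by 0.104 in the interaction. Of 1018 values of 69 followed results under these alternatives, 873 kept direction and side of the threshold, 145 kept direction only and 0 turned. Called members had median levels of 18.3 and 15.99 normalized tags, against 52.6 and 25.6 in members not called.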
